A study of Mus musculus with 18 samples.

Results

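The left eye was compared with the right eye of the mouse by sequencing small RNA and counting mature microRNAs (miRNAs). The comparison took the 6 eye libraries of the 18 in the series by their labels alone, 3 labelled as left eye and 3 as right eye, and no lung or testicle library entered it. Both groups came from male C57BL/6 mice aged 8 to 12 weeks that the series describes as normal, and the labels name no allele, treatment or agent for either side. The labels name the eye and no layer of it, and they do not say whether a left and a right library with the same number came from the same mouse or whether the libraries of a side came from separate mice. The p values below therefore measure the spread between these libraries, which may be technical. The tables listed 1431 miRNAs, of which 1185 had at least 1 count in an eye library, and all but 944 of the 1431 passed the filter on low counts and were tested.

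A miRNA is a short RNA that guides Argonaute proteins to messenger RNAs, mostly by pairing through its seed, the bases 2 to 8 from its 5′ end. Each hairpin precursor can give a 5p and a 3p strand, and usually one of them is kept. In the eye, several miRNAs are known as marks of a cell type or layer: the cluster of miR-183, miR-96 and miR-182 in photoreceptors, miR-204 and miR-211 in the pigment epithelium, miR-184 and miR-205 in lens and corneal epithelium, and miR-124 and miR-9 in retinal neurons. The comparison of sides asks whether this set of miRNAs has the same abundance in both eyes.

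The mature sequences below are those of the most abundant eye miRNAs and of the miRNAs on which the comparison of sides turned. They come from RefSeq (GRCm38.p6), where all but 78 of the tested miRNAs had an entry, and the capitals mark the seed.
miR-183-5p: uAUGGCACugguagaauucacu
miR-96-5p: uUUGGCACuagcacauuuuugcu
miR-182-5p: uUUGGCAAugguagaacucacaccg
miR-204-5p: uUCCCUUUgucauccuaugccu
miR-211-5p: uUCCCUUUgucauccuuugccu
miR-184-3p: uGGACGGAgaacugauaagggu
miR-181a-5p: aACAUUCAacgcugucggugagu
miR-451a: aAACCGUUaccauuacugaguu
miR-744-5p: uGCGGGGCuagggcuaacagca
miR-744-3p: cUGUUGCCacuaaccucaaccu
miR-3535: uGGAUAUGaugacugauuaccugaga
miR-935: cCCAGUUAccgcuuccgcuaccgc
miR-152-3p: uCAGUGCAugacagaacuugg
miR-490-5p: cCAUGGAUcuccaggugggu
let-7i-5p: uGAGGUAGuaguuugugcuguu
let-7i-3p: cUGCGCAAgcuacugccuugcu
miR-532-3p: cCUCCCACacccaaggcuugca
miR-204-5p and miR-211-5p share 1 seed, while miR-183-5p, miR-96-5p and miR-182-5p carry 3 different seeds although they come from 1 cluster. miR-124-3p, miR-486a-5p, miR-532-5p and miR-297c-5p are named below without a sequence. In GRCm38.p6 the precursors of the photoreceptor cluster lie on chromosome 6, with miR-183 at 30169668 to 30169737, miR-96 at 30169446 to 30169551 and miR-182 at 30165918 to 30165992, outside any other annotated gene. The miR-204 precursor (chr19:22750605-22750672) lies in an intron of Trpm3 and the miR-211 precursor (chr7:64205806-64205911) in an intron of Trpm1. The miR-184 precursor (chr9:89802260-89802328) lies outside any other annotated gene.

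The eye libraries held 2451484 to 2680204 counts and 838 to 925 detected miRNAs each, and the tested miRNAs took at least 99.9% of every library. A miRNA with no count in a library could hold up to 3 counts there, which is 1.12 to 1.22 counts per 1e6 (CPM), and this floor covers counting error only. Scaling by the trimmed mean of M values (TMM) gave factors of 0.982, 1.01 and 1.17 for left eyes 1, 2 and 3 and of 0.995, 0.962 and 0.901 for right eyes 1, 2 and 3. Levels below are TMM-scaled CPM, and where 3 levels are given for a side they stand in the order of libraries 1, 2 and 3. They were not corrected for differences in capture between miRNAs, so they are compared between libraries. Across the 267 miRNAs with a mean of at least 50 CPM, the median ratio of the highest to the lowest library was 1.55. Left eye 1 was the highest library for 65 of the 267 and right eye 3 for 70, while left eye 3 was the lowest for 72. These 3 libraries are named beside the results they touch.

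No miRNA passed the test for a difference between the left and the right eye. The 10 most abundant miRNAs, among them the markers of photoreceptors, pigment epithelium, lens and retinal neurons, had log2 differences, left minus right, between −0.44 and −0.12, and none of them had an unadjusted p under 0.05. The lowest adjusted p value by edgeR was 0.872, so 0 of the tested miRNAs (0%) were called, and 18 (3.70%) had an unadjusted p under 0.05, 12 of them higher in the left eye (2.46%) and 6 lower (1.23%). DESeq2 called 1 miRNA, miR-744-5p, described below, and limma-voom called 0. The log2 difference was positive for 254 miRNAs and negative for 233, with a median of 0.01, and its size was under 0.5 for 430 (88.3%). The 3 left libraries and the 3 right libraries did not overlap for 46 miRNAs (9.45%), with the left libraries above the right for 18 (3.70%) and below for 28 (5.75%). With library totals in place of TMM the median moved to 0.16, the number with a positive difference to 363, and the miRNAs without overlap to 32 (6.57%) with the left above and 11 (2.26%) below, so small differences of 1 sign are read here only against that shift.

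**Figure D1:**
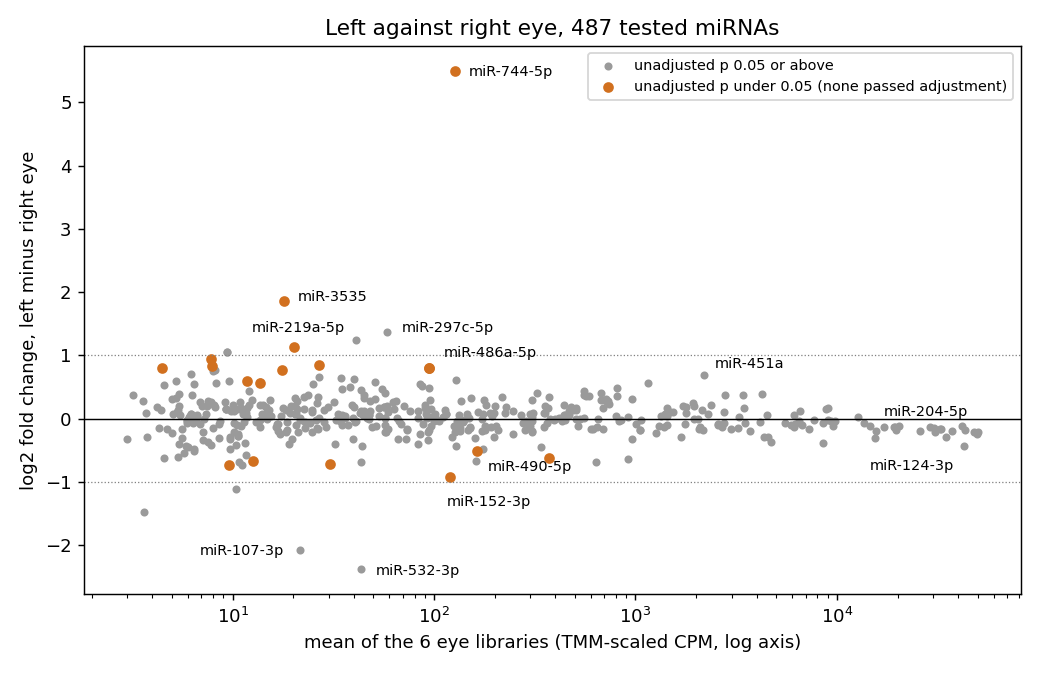
Log2 difference, left minus right eye, of each tested miRNA (vertical axis) against its mean over the 6 eye libraries in TMM-scaled CPM (horizontal log axis). Most points lie between the dotted lines at a difference of 1 in size, and of the 18 orange points with an unadjusted p under 0.05 none passed the adjustment.

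The precision of the comparison is given by the interval of each miRNA, without adjustment for the number tested. An interval that excluded 0 therefore did not mean that a miRNA passed the adjusted test. The 95% interval of the log2 difference reached a median of 0.58 to either side of the estimate over all tested miRNAs, and 344 intervals (70.6%) lay wholly within 1 log2 unit of 0. Among the 24 miRNAs with a mean of at least 10000 CPM this reach was 0.33 and 23 intervals lay within 1 unit, while among the 82 with a mean under 10 CPM it was 0.84 and 26 did. A fold of at least 2 was estimated for 11 tested miRNAs (2.26%), 7 of them higher in the left eye (1.44%) and 4 lower (0.821%).

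The photoreceptor cluster took 10.9% to 12.5% of all counts in a library, and none of its members passed the test for a difference between the sides. miR-183-5p measured 50572, 47313 and 38388 CPM in the left eyes and 52274.5, 52791 and 56291 CPM in the right eyes. Every right library lay above every left library, by a log2 difference of −0.24 (SE 0.13, 95% interval −0.54 to 0.05), with an adjusted p of 0.982 by edgeR. miR-96-5p measured 32614, 30809 and 29338 CPM in the left eyes and 35449.6, 34555 and 34421 CPM in the right eyes, again without overlap, and its difference was −0.17 (SE 0.10, 95% interval −0.41 to 0.07). miR-182-5p measured 35437.5, 33270.0 and 25277 CPM in the left eyes and 37709, 37995 and 38872 CPM in the right eyes, with a difference of −0.29 (SE 0.14, 95% interval −0.62 to 0.05). Left eye 3, which had the largest TMM factor, was the lowest library for all 3. Of the 10 most abundant miRNAs of the eye, 7 had all right libraries above all left ones under TMM, beside 5.75% of all tested miRNAs, and 4 with library totals, beside 2.26%. miR-96-5p was not among the 4. A lower level in the left eye was not particular to markers of a cell type. Of the 24 miRNAs with a mean of at least 10000 CPM, which include these 10, 23 were lower in the left eye under TMM, with a median of −0.18. All right libraries lay above all left ones for 8 of the 24 under TMM and for 4 with library totals. Over the whole cluster, 0 of 6 members passed the test, 1 was higher and 5 lower in the left eye, and the median log2 difference was −0.21 beside 0.01 over all tested miRNAs (−0.07 beside 0.16 with library totals). With library totals 2 were higher and 4 lower. On leaving out 1 library 5 or 6 were lower, with medians of −0.27 to −0.13 and 0 past the adjusted test. Without left eye 1, 2 members had an unadjusted p under 0.05 by edgeR, beside 47 of all 503 miRNAs tested there (9.34%). In whole-eye RNA, fewer cells of a type and less RNA per cell cannot be told apart.

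The pigment epithelium pair, 2 strands of 1 seed, showed no difference that passed the test. miR-204-5p, the most abundant miRNA of the eye libraries, measured 49794.5, 47643 and 41846 CPM in the left eyes and 51812, 53775.5 and 56036.5 CPM in the right eyes, with a difference of −0.21 (SE 0.11, 95% interval −0.47 to 0.04). miR-211-5p, which carries the same seed, measured 36256, 34584 and 33082 CPM in the left eyes and 36756, 41648.5 and 41332 CPM in the right eyes, with a difference of −0.20 (SE 0.11, 95% interval −0.46 to 0.05). For both, the right libraries lay above the left ones, with library totals for miR-204-5p alone of the pair, and neither passed the test. Of their other strands, miR-204-3p had a log2 difference of 0.21 (SE 0.22, 95% interval −0.30 to 0.72) and miR-211-3p of 0.58 (SE 0.43, 95% interval −0.43 to 1.58), both with overlapping libraries. None of the 4 members passed the test, and the median over the 4 was 0.00 (0.15 with library totals).

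Lens and surface epithelium showed no difference that passed the test. miR-184-3p, the leading miRNA of lens and corneal epithelium, measured 46609, 39808 and 33922 CPM in the left eyes and 40151, 45215 and 45342 CPM in the right eyes. The sides overlapped, with a difference of −0.12 (SE 0.14, 95% interval −0.44 to 0.21). miR-205-5p, a miRNA of stratified epithelium such as the cornea, measured 718, 1028 and 969 CPM in the left eyes and 811, 616 and 695 CPM in the right eyes, with a difference of 0.36 (SE 0.20, 95% interval −0.10 to 0.81). miR-31-5p had a difference of 0.12 (SE 0.13, 95% interval −0.19 to 0.43) and miR-203-3p, a miRNA of differentiating keratinocytes, of 0.09 (SE 0.17, 95% interval −0.30 to 0.49). Of the 8 members 5 were higher and 3 lower in the left eye (6 and 2 with library totals), 0 passed, and all 8 intervals lay within 1 log2 unit of 0.

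No retinal neuron miRNA passed the test. miR-124-3p, the main neuronal miRNA, measured 27360.1, 48548 and 32506.5 CPM in the left eyes and 55252.5, 34514 and 57439 CPM in the right eyes. Left eyes 1 and 3 and right eye 2 were low and the other 3 libraries high, so the sides overlapped, and the difference was −0.44 (SE 0.26, 95% interval −1.04 to 0.16). miR-9b-3p measured 29551, 31510.3 and 24542 CPM in the left eyes and 30920.4, 34799.8 and 32963 CPM in the right eyes, with a difference of −0.21 (SE 0.13, 95% interval −0.51 to 0.10). The miR-9b loci lie at the positions of the miR-9 precursors, on the opposite strand, so miR-9b-3p is not read here as a marker separate from miR-9. How reads were split between the miR-9 and miR-9b names is not given in the sources used here. miR-9-5p, of a family that acts in neural progenitors, had a difference of −0.07 (SE 0.16, 95% interval −0.45 to 0.31). miR-7a-5p, abundant in neurons and endocrine cells, had a difference of −0.37 (SE 0.17, 95% interval −0.76 to 0.01), and miR-218-5p, known from motor neurons, of −0.29 (SE 0.16, 95% interval −0.65 to 0.07), without overlap under TMM but with overlap on library totals. In all, 22 of the 23 listed neuronal miRNAs were tested, 0 passed, 9 were higher and 13 lower in the left eye, and their median was −0.10 (0.05 with library totals, and 0.02 without left eye 1, where 11 were higher and 11 lower). The miR-132 and miR-212 pair, induced in neurons by activity and light, had 4 tested members, all lower in the left eye with sizes of 0.06 to 0.41, but with library totals the 4 split evenly and without left eye 1 or without right eye 1 the split was 1 higher and 3 lower. miR-181a-5p, which is abundant in the inner retina, measured 47755, 45619 and 39702 CPM in the left eyes and 51937, 49969.7 and 52448 CPM in the right eyes, a difference of −0.21 (SE 0.11, 95% interval −0.47 to 0.04), and miR-181b-5p, with the same seed, one of −0.04 (SE 0.14, 95% interval −0.36 to 0.29).

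**Figure D2:**
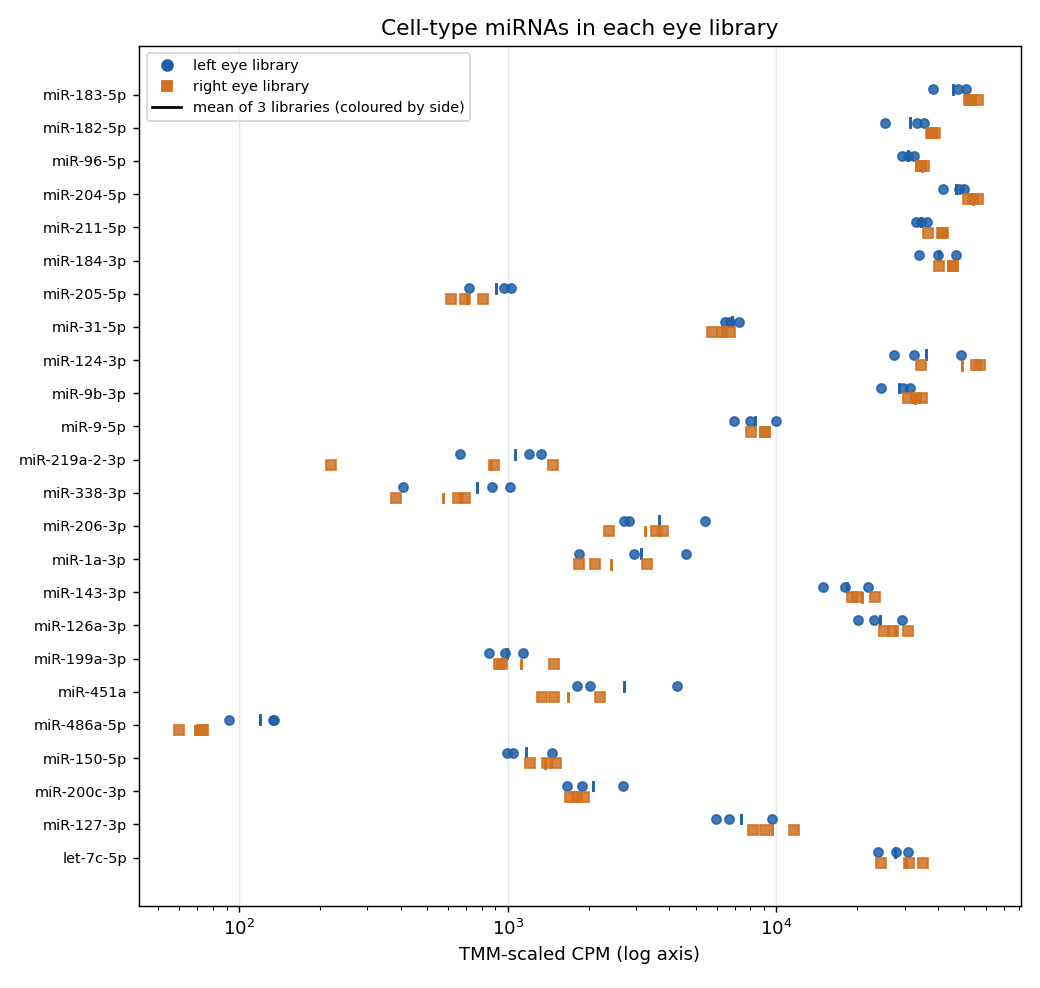
TMM-scaled CPM (horizontal log axis) of miRNAs of eye cell types in each left (blue circles) and right (orange squares) eye library, with a short line at the mean of each side. The photoreceptor and pigment epithelium miRNAs sit within narrow ranges on both sides, while miR-219a-2-3p, miR-1a-3p and miR-451a spread more widely within a side.

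Myelinating glia, the cells that wrap optic nerve axons, carry miR-219a and miR-338, and no member passed the test for a side. miR-219a-5p measured 10.3, 63.8 and 99.8 CPM in the left eyes and 48.8, 16.3 and 7.70 CPM in the right eyes. Left eye 1 and right eye 3 were lowest, the sides overlapped, and the difference was 1.25 (SE 0.84, 95% interval −0.69 to 3.19). miR-219a-2-3p measured 665.5, 1199 and 1334 CPM in the left eyes and 1480.4, 889 and 219.7 CPM in the right eyes, a difference of 0.30 (SE 0.59, 95% interval −1.05 to 1.66). The list summed to 1531.5, 2799 and 2779 CPM in the left eyes and 2729.8, 2099 and 938 CPM in the right eyes. All 4 tested members were higher in the left eye, with a median of 0.36 and 0 past the test, but without right eye 3 the 4 split evenly and the median was 0.03. On leaving out 1 of the other libraries all 4 stayed higher and 0 passed the adjusted test. The median was 0.75 without right eye 1, 0.63 without left eye 1 and 0.42 without right eye 2. It was 0.22 without left eye 2 and 0.19 without left eye 3. Without right eye 1, 1 member had an unadjusted p under 0.05 by edgeR, beside 25 of all 503 miRNAs tested there (4.97%). Without left eye 1, 2 members had one, beside 47 of all 503 (9.34%).

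Striated muscle miRNAs, which in an eye sample may come with extraocular muscle, had no member past the test either. Their source in these libraries was not tested. miR-1a-3p measured 4620.4, 2948 and 1836 CPM in the left eyes and 2106, 1846 and 3297 CPM in the right eyes, with a difference of 0.38 (SE 0.35, 95% interval −0.44 to 1.19). miR-206-3p, a miRNA of skeletal muscle, measured 5418, 2702 and 2828 CPM in the left eyes and 3576, 2388 and 3777 CPM in the right eyes, with a difference of 0.17 (SE 0.31, 95% interval −0.54 to 0.88). The list summed to 14160.0, 9616 and 8059 CPM in the left eyes and 8925, 7601 and 11314 CPM in the right eyes. Left eye 1 was highest, and the lowest and second highest were right libraries. Of the 6 tested members, 5 were higher in the left eye (median 0.39) and 0 passed. Without left eye 1, 7 members were tested, 4 of them higher, with a median of 0.03. Without right eye 2 it was also 4 of 7, with a median of 0.21, and without right eye 3 it was 6 of 7, with a median of 0.61. miR-208b-3p had 50 counts over the 6 libraries and was not tested.

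The lowest p value among the marker lists was held in the red cell list, by 1 set of counts under 2 names. miR-486a-5p and miR-486b-5p, red cell miRNAs with identical counts in every library, measured 135, 91.9 and 133.5 CPM in the left eyes and 73.6, 60.0 and 72.9 CPM in the right eyes. All left libraries lay above all right ones, with a difference of 0.80 (SE 0.22, 95% interval 0.29 to 1.32), an unadjusted p of 0.00723 and an adjusted p of 0.872 by edgeR. miR-451a, which is made without Dicer and fills red cells, measured 4280.4, 1818 and 2019 CPM in the left eyes and 2203, 1347 and 1483 CPM in the right eyes. Left eye 1 was the highest library and right eye 1 lay above left eyes 2 and 3, so the sides overlapped, with a difference of 0.69 (SE 0.35, 95% interval −0.13 to 1.51). All 6 tested red cell members were higher in the left eye, with a median of 0.64 beside 0.01 over all miRNAs and 0 past the adjusted test. Without left eye 1 the split was 4 against 2 and the median 0.41, and without right eye 2 it was 5 against 1 and 0.42. Leaving out each of the other libraries in turn kept all 6 higher, with medians of 0.54 to 0.87 and 0 past the adjusted test. In those fits 2 to 4 of the 6 names had an unadjusted p under 0.05 by edgeR, beside 3.01% to 4.97% of all tested miRNAs. With identical names kept once, 5 members were tested and all 5 were higher, with a median of 0.60. Of these, 1 had an unadjusted p under 0.05 by edgeR, beside 16 of all 480 miRNAs in that fit (3.33%). The red cell list summed to 4653, 2063 and 2351 CPM in the left eyes and 2425, 1513 and 1694 CPM in the right eyes.

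Vessel, leukocyte and stromal miRNAs held no member past the adjusted test. Endothelial miR-126a-3p measured 29391, 23124 and 20102 CPM in the left eyes and 25167, 27089.8 and 30801 CPM in the right eyes, with a difference of −0.19 (SE 0.17, 95% interval −0.58 to 0.19), and the sides overlapped. Its less abundant other strand, miR-126a-5p, had a difference of 0.27, so 1 of the 2 tested endothelial members was higher and 1 lower in the left eye. Among the 8 tested leukocyte miRNAs 4 were higher and 4 lower in the left eye (6 and 2 with library totals). miR-142a-5p, made in all blood cell lineages, measured 22.1, 27.3 and 17.3 CPM in the left eyes and 14.4, 14.2 and 10.4 CPM in the right eyes. The left libraries lay above the right ones, with a difference of 0.77 (SE 0.26, 95% interval 0.17 to 1.36) and an unadjusted p of 0.0179. miR-223-3p of myeloid cells had a difference of 0.00 (SE 0.26, 95% interval −0.61 to 0.61). miR-150-5p of mature lymphocytes had a difference of −0.24 (SE 0.20, 95% interval −0.70 to 0.23). Smooth muscle miR-143-3p measured 21986, 18007 and 14862 CPM in the left eyes and 20009, 19164 and 23335.5 CPM in the right eyes, a difference of −0.19 (SE 0.17, 95% interval −0.58 to 0.20), and 2 of the 3 tested members of its list were higher in the left eye. In the mesenchymal list of miR-199 and miR-214, 3 were higher and 3 lower (median −0.07). Among the lower ones were miR-199a-3p and miR-199b-3p, which have identical counts. With identical names kept once, 3 were higher and 2 lower (median 0.06). miR-21a-5p, often raised in injured tissue, had a difference of 0.06 (SE 0.17, 95% interval −0.33 to 0.46), and miR-210-3p, induced by low oxygen, one of −0.19 (SE 0.25, 95% interval −0.76 to 0.39). Their other strands had the opposite sign, miR-21a-3p (mean 10.8 CPM) at −0.69 and miR-210-5p at 0.15. Of the 4 tested members of this list 2 were higher and 2 lower in the left eye, with a median of −0.06 (0.08 with library totals).

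The epithelial 200 family, which represses genes of the mesenchymal state, had its highest sum in left eye 1 and no member past the test. miR-429-3p measured 4819, 2121 and 1631 CPM in the left eyes and 2191, 2510.0 and 3267 CPM in the right eyes, a difference of 0.11 (SE 0.39, 95% interval −0.79 to 1.0), and miR-200a-3p measured 1228, 652 and 529 CPM in the left eyes and 565, 628 and 799 CPM in the right eyes. The family summed to 9825, 5324 and 4287 CPM in the left eyes and 5075, 5545 and 6714 CPM in the right eyes. Of the 9 tested members 8 were higher in the left eye, with a median of 0.11, and without left eye 1 only 1 was, with a median of −0.33. Leaving out 1 of the other libraries gave 6 to 9 higher and medians of 0.14 to 0.39. With all 6 libraries, limma-voom gave 4 higher and 5 lower (median −0.02), and so did the replicate block (median −0.01). DESeq2 gave 8 higher and 1 lower (median 0.12), and library totals gave all 9 higher (median 0.22). The HOX cluster miRNAs, known from axial patterning, depended on left eye 1 and right eye 1. miR-10a-5p measured 157, 61.0 and 87.0 CPM in the left eyes and 60.0, 84.2 and 63.9 CPM in the right eyes, a difference of 0.55 (SE 0.35, 95% interval −0.26 to 1.37), and without left eye 1 the pair of tested members split evenly with a median of −0.03, as it did without right eye 1 with a median of 0.22. miR-196a-5p and miR-196b-5p of the same clusters had 13 and 12 counts over the 6 libraries and were not tested.

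**Figure D3:**
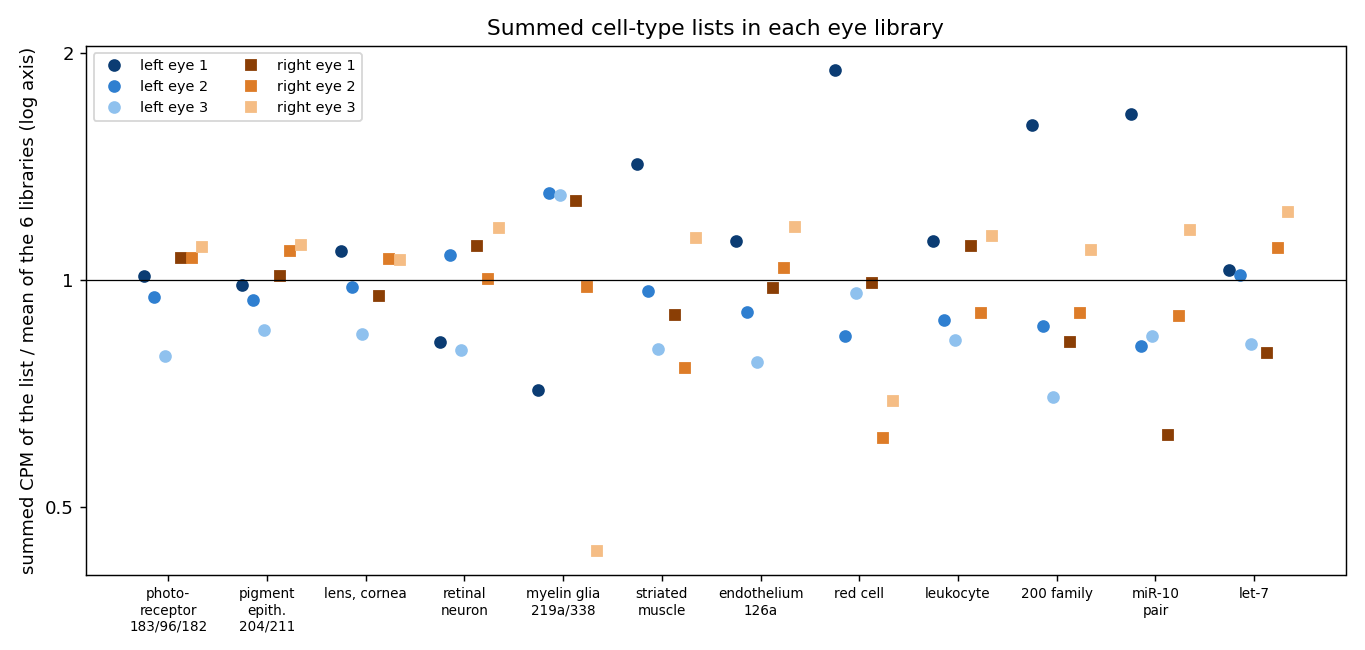
Summed TMM-scaled CPM of each marker list in each eye library divided by the mean of the 6 libraries (vertical log axis), with circles for left and squares for right eyes and shades for the library number. Left eye 1 stands highest for striated muscle, red cells, the 200 family and the miR-10 pair, and right eye 3 lowest for myelinating glia.

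The miRNAs tied to left-right patterning were examined as a list of their own. Nodal and activin signalling sets the left side of the early embryo, and miR-15, miR-16 and the embryonic miR-302 and miR-290 families are known to act on it in embryos. Of the 12 listed members 5 were tested, and the embryonic families had at most 5 counts per member over the 6 libraries, with 4 members at 0. miR-16-5p measured 14404, 14133 and 13064.5 CPM in the left eyes and 16074, 15377 and 20062 CPM in the right eyes, without overlap under TMM but with overlap on library totals, and its difference was −0.31 (SE 0.14, 95% interval −0.64 to 0.02). miR-195a-5p had a difference of −0.45 (SE 0.30, 95% interval −1.14 to 0.23) and miR-15a-5p one of −0.01 (SE 0.17, 95% interval −0.41 to 0.39). All 5 tested members were lower in the left eye, with a median of −0.20 and 0 past the test. With library totals 3 were lower and 2 higher, without right eye 3 the split was 2 lower and 3 higher, and without left eye 1 it was 3 lower and 2 higher.

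Broad families had no member past the adjusted test. All 10 tested members of the let-7 family, which share 1 seed and mark differentiated cells, were lower in the left eye with a median of −0.12, but with library totals 8 of 10 were higher and without right eye 3 the split was 5 against 5. let-7k alone had an unadjusted p under 0.05, 0.048, with a difference of −0.71 (SE 0.31, 95% interval −1.42 to −0.01), and it measured 26.2, 15.1 and 27.8 CPM in the left eyes and 41.2, 27.9 and 44.4 CPM in the right eyes. Of the 5 tested miR-30 members 2 were higher and 3 lower, with a median of −0.03, but with library totals all 5 were higher (median 0.11), as they were without left eye 1 (median 0.10). Leaving out 1 of the other libraries gave 1 to 4 higher. The imprinted Dlk1-Dio3 cluster on chromosome 12, the longest list, had 59 of its 61 members in the tables and 47 tested, with 17 higher and 30 lower in the left eye and a median of −0.08 (0.07 with library totals). Its leading member miR-127-3p measured 9633, 5944 and 6639.5 CPM in the left eyes and 8171, 9075 and 11672 CPM in the right eyes, a difference of −0.38 (SE 0.22, 95% interval −0.89 to 0.13), and miR-299a-3p was its only member with an unadjusted p under 0.05, at −0.74 (SE 0.26, 95% interval −1.34 to −0.14).

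**Figure D4:**
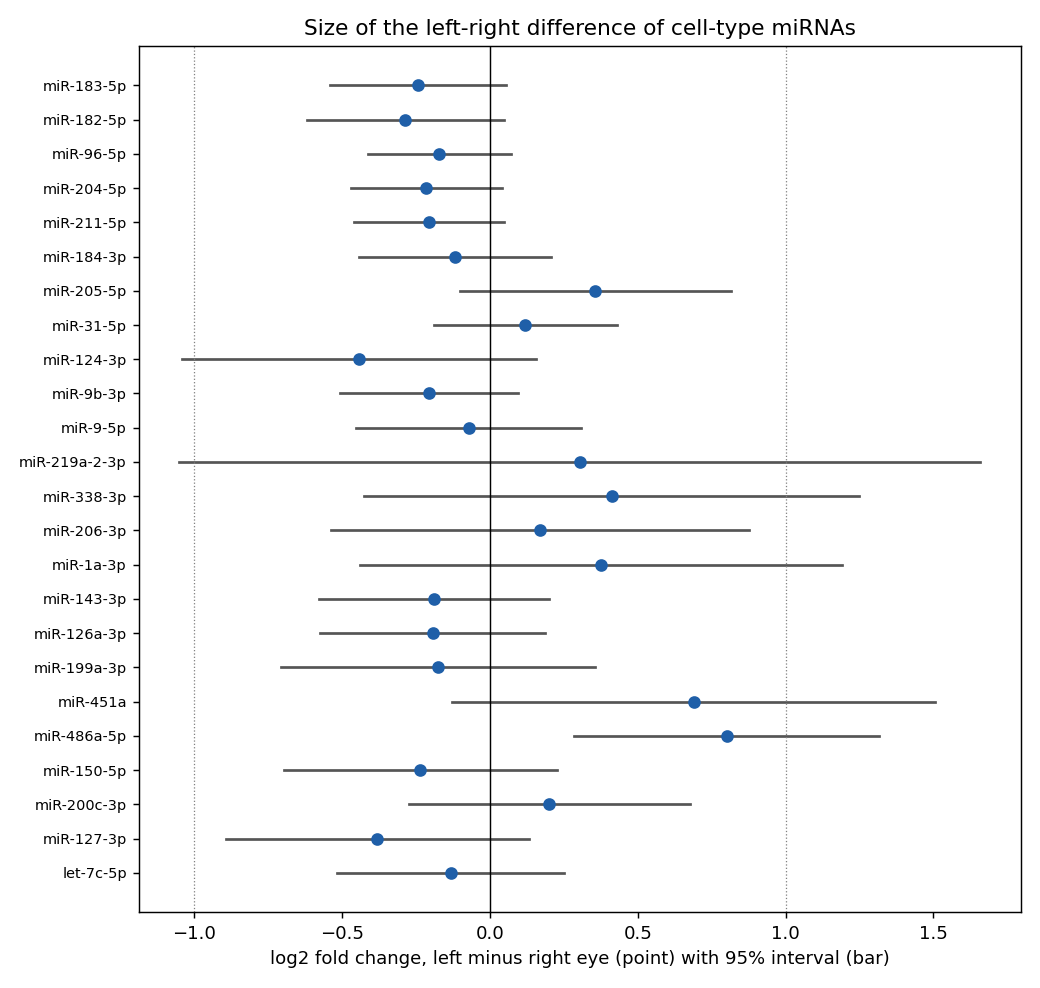
Log2 difference, left minus right eye (points), with its 95% interval (bars) for the cell-type miRNAs. The intervals of the abundant photoreceptor, pigment epithelium and lens miRNAs lie within 1 log2 unit of 0, whereas that of miR-219a-2-3p runs from −1.05 to 1.66.

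The 10 lowest unadjusted p values came from miRNAs of low to middling abundance, with means of 7.80 to 162.7 CPM. miR-744-5p measured 331, 5.94 and 405 CPM in the left eyes and 2.80, 4.59 and 9.06 CPM in the right eyes. Left eyes 1 and 3 stood far above the other 4 libraries and left eye 2 lay within the right libraries, so the sides overlapped. The difference was 5.50 (SE 1.31, 95% interval 2.48 to 8.52), with an unadjusted p of 0.00304 and an adjusted p of 0.872 by edgeR. DESeq2 gave it an adjusted p of 0.0239, and without left eye 2 edgeR gave one of 0.000912. Its precursor (chr11:65734733-65734832) lies in an intron of Map2k4, and the other strand of that precursor, miR-744-3p, measured 31.9, 35.6 and 37.3 CPM in the left eyes and 29.2, 34.2 and 23.6 CPM in the right eyes, a difference of 0.27 (SE 0.22, 95% interval −0.25 to 0.78).

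Among the other miRNAs with the lowest p values, miR-3535 measured 28.1, 23.4 and 32.7 CPM in the left eyes and 1.20, 13.8 and 8.16 CPM in the right eyes, with a difference of 1.87 (SE 0.59, 95% interval 0.50 to 3.24). Its annotated locus (chr1:86351981-86352127) lies within the small nucleolar RNA gene Gm24148 in the nucleolin gene Ncl. miR-935, whose locus (chr7:3415066-3415156) overlaps an exon of Cacng8, measured 35.0, 29.3 and 38.6 CPM in the left eyes and 20.8, 23.3 and 13.1 CPM in the right eyes, with a difference of 0.84 (SE 0.27, 95% interval 0.22 to 1.46). miR-152-3p (chr11:96850393-96850465, in an intron of Copz2) measured 61.2, 91.5 and 95.8 CPM in the left eyes and 131.7, 223.5 and 116 CPM in the right eyes, with a difference of −0.92 (SE 0.30, 95% interval −1.62 to −0.22), but with library totals its sides overlapped. Of the other miRNAs with its seed, miR-148a-3p had a difference of −0.69 (SE 0.50, 95% interval −1.84 to 0.47) and miR-148b-3p one of 0.09 (SE 0.28, 95% interval −0.56 to 0.74). miR-490-5p (chr6:36421742-36421825, in an intron of Chrm2) measured 147, 131 and 125 CPM in the left eyes and 205.7, 178 and 189.8 CPM in the right eyes, a difference of −0.51 (SE 0.17, 95% interval −0.90 to −0.12), while the other strand miR-490-3p had one of 0.26 (SE 0.34, 95% interval −0.53 to 1.05). miR-187-5p measured 11.03, 8.71 and 11.1 CPM in the left eyes and 6.00, 5.84 and 4.08 CPM in the right eyes, with a difference of 0.95 (SE 0.27, 95% interval 0.31 to 1.58), against −0.17 (SE 0.14, 95% interval −0.50 to 0.16) for the far more abundant miR-187-3p. miR-466c-5p had a difference of 0.83 (SE 0.28, 95% interval 0.20 to 1.47). miR-3535, miR-935, miR-152-3p, miR-490-5p, miR-187-5p and miR-466c-5p each had an adjusted p of 0.872 by edgeR. Under TMM their libraries did not overlap between sides, which held for 9.45% of all tested miRNAs. These miRNAs were picked by low p values in the same libraries, so the lack of overlap is not separate evidence of a difference.

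Both strands of a precursor are cut from 1 transcript, so the differences of 5p and 3p strands were set side by side, paired by name. Some names, such as miR-199a, have more than 1 precursor. Some pairs share a strand with identical counts, as miR-199a and miR-199b do. Of 130 such pairs with both strands tested, the 2 strands had differences of the same sign in 67 (51.5%). Across these pairs Pearson's r was 0.13 and Spearman's rho 0.18, a description over strands from the same 6 libraries. Among the 44 pairs with both strands at 50 CPM or more, 22 had the same sign and r was 0.01.

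Of the 267 miRNAs with a mean of at least 50 CPM, 4 differed at least 10 times between single libraries, and none of these 4 separated the sides. They were miR-532-5p, miR-744-5p, let-7i-3p and miR-297c-5p. miR-532-5p measured 2721, 6.34 and 2026 CPM in the left eyes and 2223, 2192 and 10.4 CPM in the right eyes. Its other strand, miR-532-3p, measured 0, 42.4 and 0 CPM in the left eyes and 181.7, 0 and 37.2 CPM in the right eyes. miR-532-3p was thus counted in left eye 2 and right eye 3, where miR-532-5p held 16 and 23 counts, and in right eye 1, and had no count in the remaining 3 libraries. let-7i-3p measured 11.8, 198 and 84.4 CPM in the left eyes and 189, 32.9 and 80.6 CPM in the right eyes, highest in left eye 2 and right eye 1, while let-7i-5p stayed between 12737 and 19883 CPM. miR-297c-5p measured 0, 148 and 104 CPM in the left eyes and 0.80, 0.42 and 97.4 CPM in the right eyes, and its low libraries held 0 to 2 counts while the related miR-297a-5p held 79 to 156 counts in every library. For miR-744-5p the low libraries held 7 to 20 counts, and miR-744-3p held 52 to 114 in every library. The first principal component of log2 levels held 46.8% of the variance and set left eye 2 and right eye 3 apart from the other 4 libraries. Without these 4 miRNAs, a choice made after seeing the data, it held 41.8%, with left eye 1 and right eye 3 at one end and left eye 3 at the other, and 0 of 483 miRNAs were called by edgeR, with 17 at an unadjusted p under 0.05. How these names were assigned reads is not given in the sources used here, and its part in the counts was not tested.

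**Figure D5:**
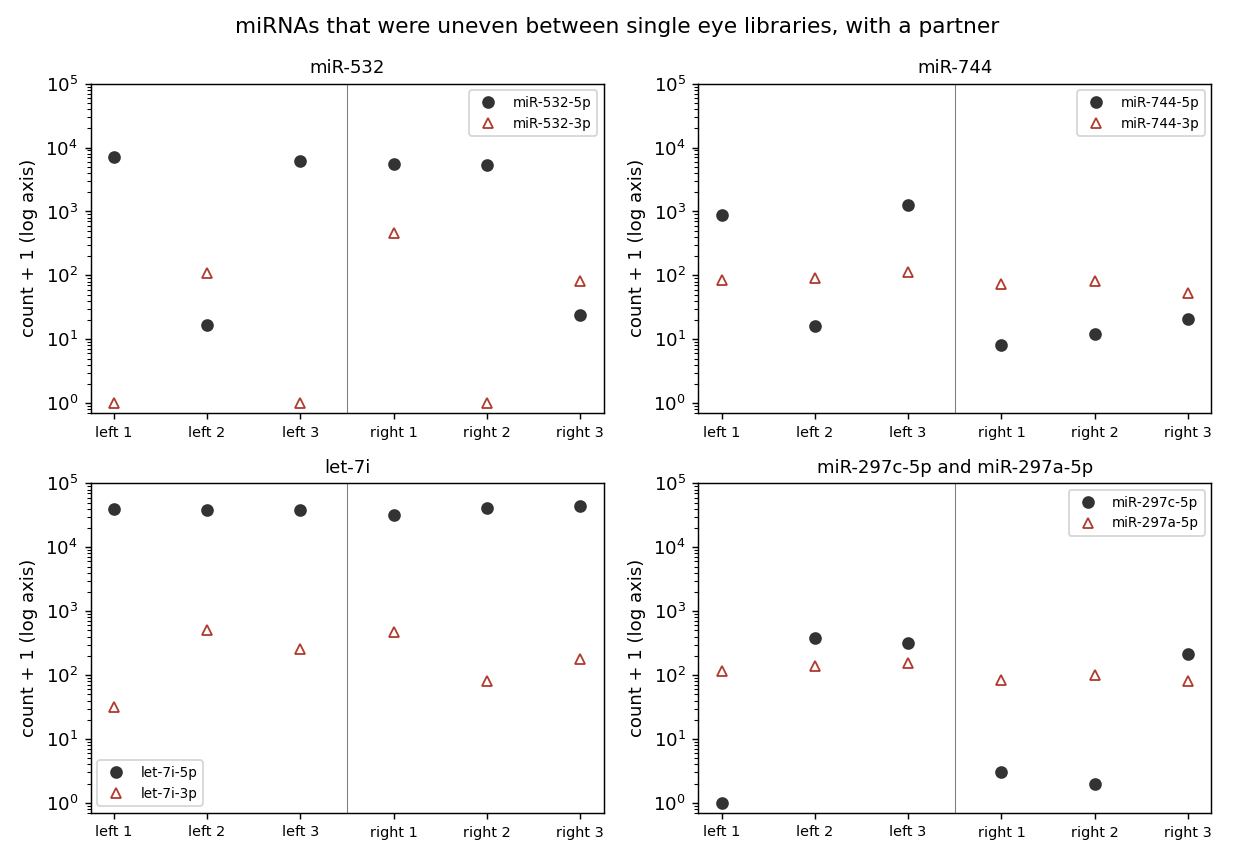
Counts plus 1 (vertical log axis) of 4 uneven miRNAs (filled circles), each with its other strand or a relative (open triangles), in the 6 eye libraries along the horizontal axis. miR-532-5p held 16 and 23 counts in left eye 2 and right eye 3, and miR-744-5p held 7 to 20 counts outside left eyes 1 and 3.

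Gonad and germ cell markers were scarce in the eye libraries. Of 14 gonad and germ cell miRNAs 2 passed the filter and 3 had no count in any eye library, and their summed level on library totals was 3.73, 16.8 and 21.4 CPM in the left eyes and 15.9, 21.2 and 49.4 CPM in the right eyes. miR-202-5p, a gonadal miRNA, measured 3.42, 7.13 and 8.83 CPM in the left eyes and 8.00, 9.59 and 25.4 CPM in the right eyes, a difference of −1.12 (SE 0.52, 95% interval −2.32 to 0.08), highest in right eye 3. The multiciliated cell list of miR-34b, miR-34c and miR-449 summed to 403.0 to 576.0 CPM on library totals. Of its 6 members 5 were tested, with 3 higher and 2 lower in the left eye (4 and 1 with library totals). Among them miR-449a-5p measured 117, 92.3 and 117 CPM in the left eyes and 135.7, 126.3 and 182.1 CPM in the right eyes, without overlap under TMM but with overlap on library totals. miR-34a-5p, a widely expressed relative outside the list with the seed of miR-34b-5p and miR-449a-5p, measured 3516, 2749 and 2858 CPM in the left eyes and 3159, 3325 and 3676 CPM in the right eyes. The sides overlapped, with a difference of −0.16 (SE 0.16, 95% interval −0.52 to 0.21). The part of these miRNAs in the other results was not tested.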

How the data were processed

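Small RNA of 18 mouse libraries was sequenced on the BGI-500 platform, per the labels' protocols, and the 6 eye libraries were used. The authors deposited 1 table per library with raw counts, in whole numbers, for each mature miRNA name, as the file headers and values show. GRCm38.p6 is the only build in the submitters' processing notes. No aligner or counting program, no handling of reads that match several miRNAs and no use of molecular identifiers was given in the sources used here, and reads without identifiers are not independent molecules.

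The 6 libraries were fitted with edgeR 4.0.16 (R 4.3.3), with TMM scaling, the filterByExpr filter by side, a two-sided quasi-likelihood test without covariates, and p values adjusted by Benjamini-Hochberg over the 487 miRNAs tested, with a threshold of 0.05. The SE is the size of the log2 difference over the root of F. The scripts were tested on simulated data. Alternatives were DESeq2 1.42.0, limma-voom (limma 3.58.1), relative log expression scaling, library totals, no filter, a minimum mean of 50 CPM, all 18 libraries in the fit, identical names kept once, a replicate block, and leaving out each library.

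Named miRNAs were those called at adjusted p under 0.05 and, with fewer than 10 called, the 10 lowest p values. The rule added the 10 most abundant, up to 4 most abundant members of each of 21 lists, the 6 largest and 6 smallest SDs within sides, and the 5 largest differences without overlap in each direction, the last 2 criteria among miRNAs of at least 50 CPM. Other strands, seed relatives and further list members were added after their values were seen. The comparison and the lists, written from general knowledge, were chosen with earlier results of these data known. Positions are those of RefSeq genes, with overlaps from GENCODE M21, on GRCm38.p6.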

Additional observations from a re-analysis of the deposited data

How the results depend on the processing

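The count of miRNAs past the adjusted test was 0 in the main analysis and 0 with limma-voom, relative log expression scaling, library totals, a minimum mean of 50 CPM, all 18 libraries in the fit, identical names kept once and the replicate block. It was 1 with DESeq2 (miR-744-5p, also the 1 called among the named miRNAs) and 6 with no filter on low counts, of which miR-744-5p, miR-3535, miR-219a-5p and miR-297c-5p were the 4 named and miR-107-3p and miR-532-3p the others. Leaving out 1 library gave 0 to 1 called, also among the named, the 1 being miR-744-5p without left eye 2. The count at an unadjusted p under 0.05 was 18, against 56 with no filter, 6 at a minimum of 50 CPM, 11 with all 18 libraries and 15 to 47 on leaving out 1 library, the 47 without left eye 1. Intervals within 1 log2 unit of 0 numbered 344 (70.6%), against 220 of the 267 tested at a minimum of 50 CPM (82.4%). The share was lower with library totals (62.2%), with all 18 libraries (289 of 642, 45.0%) and with no filter (396 of 1185, 33.4%). On leaving out 1 library it was 57.8% to 63.6%. The fit at 50 CPM had fewer miRNAs, and the cause of the other shifts was not tested. The log2 fold change of mmu-miR-181c-5p, −0.13 with the left libraries below the right, went to 0.0219 with library totals. Of 101 named miRNAs 22 changed sign with library totals and 18 without left eye 1.

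With the replicate number as a block, 0 miRNAs were called, the lowest adjusted p by edgeR was 0.998 and 16 had an unadjusted p under 0.05. Deviations of same-numbered libraries correlated at 0.0751, −0.566 and −0.227, and 0 of 6 libraries correlated best with their own number. Without the 4 uneven miRNAs the correlations were −0.382, −0.154 and −0.373. With 3 libraries a side, such correlations cannot show whether same-numbered eyes came from the same mouse. The main fit used no pairing because the labels do not give one.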

Other observations

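Some values of miRNAs outside the lists were noticed in the same fit and are given as values, chosen after they were seen. The miR-29 family, which represses collagen genes, had log2 differences of 0.39 (SE 0.22, 95% interval −0.13 to 0.91) for miR-29a-3p, 0.35 (SE 0.27, 95% interval −0.27 to 0.98) for miR-29b-3p and 0.37 (SE 0.24, 95% interval −0.19 to 0.94) for miR-29c-3p. miR-29a-3p measured 3669.6, 6307 and 4504 CPM in the left eyes and 4215, 3689 and 3127 CPM in the right eyes, with left eye 1 below right eyes 1 and 2, so the sides overlapped. miR-194-5p measured 379.9, 291.1 and 207.7 CPM in the left eyes and 408.6, 408.6 and 543.2 CPM in the right eyes and miR-221-5p measured 40.3, 21.8 and 20.9 CPM in the left eyes and 7.20, 17.9 and 12.7 CPM in the right eyes, both without overlap, and neither passed the adjusted test by edgeR (adjusted p = 0.982 and 0.882).

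Single libraries stood apart for a few miRNAs. In right eye 1, miR-103-3p and miR-107-3p, close relatives (how reads were split between these names is not given in the sources used here), were both highest: miR-103-3p measured 586, 846 and 732 CPM in the left eyes and 1893, 633 and 835 CPM in the right eyes, and miR-107-3p measured 5.32, 11.5 and 8.18 CPM in the left eyes and 90.4, 7.92 and 6.80 CPM in the right eyes. miR-148a-3p was highest in right eye 2, measuring 352, 612 and 508 CPM in the left eyes and 494.7, 1503 and 370.2 CPM in the right eyes.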
